A study of Homo sapiens with 12 samples.

Results

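The genes described here are 10 genes of transforming growth factor beta (TGF-beta) signalling, taken by symbol from a table of 24641 gene symbols: the ligand genes TGFB1 and TGFB2, the activin subunit gene INHBA, the receptor genes TGFBR1, TGFBR2 and TGFBR3, the latent TGF-beta binding protein genes LTBP1, LTBP2 and LTBP3, and TGFBI. TGFBI encodes a matrix protein named for its induction by TGF-beta and is neither a ligand, a receptor nor a latent-binding protein. All 10 had enough reads to be among the 15648 genes tested. MDA-MB-231, a human breast cancer cell line without hormone receptors or HER2 amplification, carried a short hairpin RNA against RIPOR3 (shRIPOR3) or a control hairpin (shControl, whose genotype the labels give as WT), and both were grown in DMEM with fetal bovine serum. Each was kept in hypoxia (1% O2 for 24 hours) or in normoxia, which made 4 groups of 3 libraries: hypoxic shRIPOR3, hypoxic shControl, normoxic shRIPOR3 and normoxic shControl. The column names point to a single RIPOR3 hairpin, so an effect of that hairpin cannot be told apart from an effect of lower RIPOR3. Whether each line is a pool or a clone is not stated. The stated aim was to learn how RIPOR3 acts in breast tumour growth and metastasis.

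TGF-beta is secreted bound to its own propeptide, and most of it is held inactive in the matrix by latent TGF-beta binding proteins until integrins, proteases or thrombospondin release it. The active ligand joins the type II receptor TGFBR2 with the type I receptor TGFBR1, which phosphorylates SMAD2 and SMAD3, while TGFBR3 (betaglycan) is a co-receptor that presents ligand, TGFB2 above all. In carcinoma cells the pathway is known for growth control, matrix production and the epithelial-mesenchymal transition, and activin A, a dimer of the INHBA product, signals through the same SMADs by its own receptors.

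Promoter windows are shown for a ligand pair and a latent-binding protein pair, because the members of each pair differed in how shRIPOR3 compared with shControl. Each window holds 300 bases, from 250 bases before to 50 after a transcript start of the RefSeq promoter table for GRCh38.p14, on the gene's own strand. Capitals mark ACGTG, the core of the hypoxia response element, found on either strand. The TGFB1 window is chr19:41353873-41354172 (minus strand), that of TGFB2 is chr1:218345086-218345385 (plus strand), that of LTBP1 is chr2:32946703-32947002 (plus strand, the first of its 3 windows) and that of LTBP2 is chr14:74612188-74612487 (minus strand).
TGFB1 promoter: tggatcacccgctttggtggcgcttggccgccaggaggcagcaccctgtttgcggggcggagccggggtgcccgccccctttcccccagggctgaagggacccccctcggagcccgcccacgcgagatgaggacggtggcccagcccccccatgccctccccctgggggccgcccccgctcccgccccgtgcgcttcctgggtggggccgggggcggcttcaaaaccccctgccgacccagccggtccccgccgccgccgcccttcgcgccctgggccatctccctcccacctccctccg
TGFB2 promoter: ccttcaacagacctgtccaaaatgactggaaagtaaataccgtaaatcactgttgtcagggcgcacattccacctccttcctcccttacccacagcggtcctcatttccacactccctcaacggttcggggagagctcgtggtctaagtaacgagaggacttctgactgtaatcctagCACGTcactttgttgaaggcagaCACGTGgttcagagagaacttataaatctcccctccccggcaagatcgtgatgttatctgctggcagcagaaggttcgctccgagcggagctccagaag
LTBP1 promoter: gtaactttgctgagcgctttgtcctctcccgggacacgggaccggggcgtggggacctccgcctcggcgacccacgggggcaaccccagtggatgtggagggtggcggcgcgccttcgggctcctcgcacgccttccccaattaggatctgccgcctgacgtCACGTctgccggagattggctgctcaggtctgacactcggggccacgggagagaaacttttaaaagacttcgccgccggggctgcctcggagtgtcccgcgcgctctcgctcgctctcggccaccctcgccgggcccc
LTBP2 promoter: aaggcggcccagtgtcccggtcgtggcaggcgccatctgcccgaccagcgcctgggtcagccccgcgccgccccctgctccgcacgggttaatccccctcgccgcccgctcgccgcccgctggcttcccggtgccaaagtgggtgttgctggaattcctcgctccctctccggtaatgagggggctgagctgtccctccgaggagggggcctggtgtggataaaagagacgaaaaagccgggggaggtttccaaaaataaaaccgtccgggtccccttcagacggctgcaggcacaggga
The TGFB2 window held 3 matches to ACGTG, of which 2 lie on opposite strands of 1 palindrome, and the LTBP1 window held 1. The TGFB1 and LTBP2 windows held none. The TGFB1 window held 7 matches to GGGCGG, the box bound by SP1, and the LTBP2 window 3, against none in the other 2 windows. G and C made up 77.3% of the TGFB1 window, 51.7% of that of TGFB2, 68.7% of that of LTBP1 and 67% of that of LTBP2. Both LTBP3 windows, not printed, held 1 match to GGGCGG each and none to ACGTG, and LTBP3 was lower in shRIPOR3 like LTBP1. CAGAC, the SMAD box, occurred 2 times in the TGFB2 window, 2 times in the LTBP1 window and 1 time in the LTBP2 window. The 10 genes matched 21 windows, and ACGTG was in 4 of these, 1 each of TGFB2, TGFBR1, TGFBR2 and LTBP1. CAGAC was in 11 of the 21 windows and GGGCGG also in 11. Over all 35116 windows of the table, 21.4% held ACGTG, 45.3% held CAGAC and 45% held GGGCGG on either strand. A match is only a run of letters, and a missing match says only that those letters are not in the window.

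The libraries and their labels were checked as follows. RIPOR3 had 9, 3 and 11 counts in the hypoxic shRIPOR3 libraries, against 33, 18 and 30 in the hypoxic shControl libraries, a depth-corrected ratio of shControl over shRIPOR3 of 4.65 (exact Poisson 95% interval 2.90 to 7.74, counting error only). In normoxia it had 0, 0 and 1 counts in shRIPOR3, against 7, 3 and 7 in shControl, a ratio of 16.7 (2.62 to 698). Library totals were 31781324 to 52526813 counts in hypoxia and 14750734 to 30032858 in normoxia, so depth moved with oxygen. Within hypoxia it also differed between the lines, at 35556178 to 52526813 in shRIPOR3 and 31781324 to 39171440 in shControl. The counts of the 10 genes called in hypoxia are also given with all libraries thinned to the smallest total. The 4 mesenchymal markers VIM, CD44, SPARC and AXL lay between 75.2 and 752 CPM (counts scaled to library size) in every group mean, while ESR1 was at most 0.226 CPM and CDH1 at most 1.21 CPM. The luminal keratins KRT8 and KRT18 were also high, at 894 to 1070 and 262 to 403 CPM. Of the other luminal markers, EPCAM had 4.95 to 7.26 CPM, GATA3 1.36 to 2.925 and FOXA1 0.596 to 0.911. The sum of the 7 luminal markers moved with oxygen. It was 1204 to 1260 CPM in hypoxic shRIPOR3 and 1154 to 1182 in hypoxic shControl. In normoxia it was 1451 to 1511 CPM in shRIPOR3 and 1347 to 1445 in shControl. Of 4 endothelial markers 3 exceeded 1 CPM in group means: PECAM1 (1.23 to 5.36 CPM), CDH5 (1.32 to 8.28) and KDR (6.70 to 9.27). VWF was at most 0.166 CPM. The sum of the 4 moved with the groups. It was 12.8 to 13.6 CPM in hypoxic shRIPOR3 and 21.7 to 23.2 in hypoxic shControl. In normoxia it was 8.46 to 10.4 CPM in shRIPOR3 and 13.5 to 14.8 in shControl. The sum of the 4 fibroblast markers in the table also moved. It was 7.32 to 7.57 CPM in hypoxic shRIPOR3 and 10.99 to 12.2 in hypoxic shControl. In normoxia it was 3.63 to 5.598 CPM in shRIPOR3 and 5.70 to 7.996 in shControl. In group means PDGFRB had 2.03 to 7.07 CPM, COL1A1 2.51 to 4.08 and COL3A1 0.287 to 0.487, while DCN had at most 0.0240. The 2 blood markers in the table summed to at most 0.211 CPM. The part of these markers in the results was not tested. Nothing in the labels says that replicates were separate cultures, and the p-values then speak of the spread among these 12 libraries alone, possibly a technical spread. In such bulk RNA, fewer cells of a kind and less RNA per cell cannot be told apart.

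Levels per kilobase of exon (TMM-normalised CPM divided by the GENCODE 29 exon length) put TGFBR2 first in all 4 groups, at 28.3 ± 0.831 in hypoxic shRIPOR3, 25.2 ± 0.602 in hypoxic shControl, 23.9 ± 0.898 in normoxic shRIPOR3 and 21.5 ± 0.598 in normoxic shControl (SD, n = 3 each). TGFBI, TGFB1, TGFB2 and TGFBR1 filled the next 4 places in every group, INHBA was sixth, and the 3 latent-binding protein genes and TGFBR3 came last. Among the ligands the order depended on the hairpin. In shRIPOR3 the library ranges of TGFB1 and TGFB2 overlapped, with 11.9 ± 0.738 CPM per kilobase for TGFB1 and 12.2 ± 0.194 for TGFB2 in hypoxia, and 9.77 ± 0.599 for TGFB1 and 10.2 ± 0.636 for TGFB2 in normoxia. TGFB1 stood above TGFB2 in shControl, at 20.4 ± 0.587 for TGFB1 and 11.7 ± 0.825 for TGFB2 in hypoxia, and 14.98 ± 0.720 for TGFB1 and 8.72 ± 0.120 for TGFB2 in normoxia. Among these 3 latent-binding protein genes in hypoxia, LTBP2 led in shRIPOR3 (3.65 ± 0.0484 CPM per kilobase, above LTBP1 at 1.54 ± 0.117 and LTBP3 at 0.775 ± 0.0110), whereas LTBP1 led in shControl (4.85 ± 0.192, above LTBP2 at 3.49 ± 0.0772 and LTBP3 at 2.11 ± 0.113). LTBP4, a latent-binding protein gene outside the 10, was not ranked. LTBP2 also led in normoxic shRIPOR3 (1.27 ± 0.122), above LTBP1 (0.709 ± 0.0844) and LTBP3 (0.582 ± 0.0602), whose ranges overlapped, and stood last of all 10 in normoxic shControl (1.11 ± 0.0463). Neighbours whose library ranges also overlapped were TGFBI and TGFB1, INHBA and LTBP1, and LTBP3 and TGFBR3 in hypoxic shControl, and LTBP1 and LTBP3 in normoxic shControl.

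**Figure D1:**
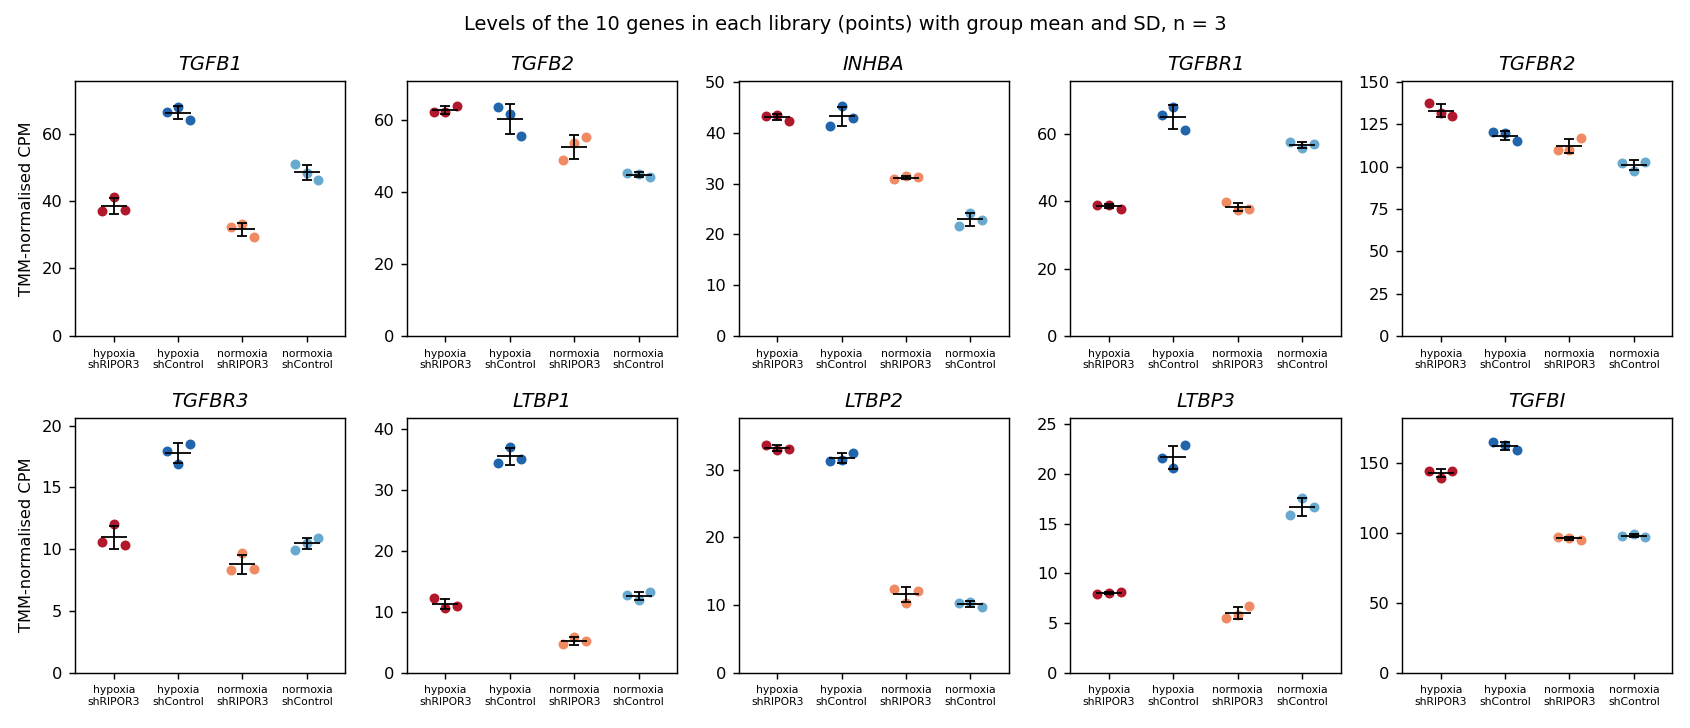
TMM-normalised CPM (vertical axes, each from 0) of the 10 genes in the 4 groups. Points are the 3 libraries of a group and bars the mean and SD. TGFB1, TGFBR1, LTBP1 and LTBP3 are lower in shRIPOR3 than in shControl at both oxygen levels, and LTBP2 is high in both hypoxic groups.

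The genes differed between the lines in both directions. In hypoxia 6 of the 10 were called lower in shRIPOR3 than in shControl (TGFB1, TGFBR1, TGFBR3, LTBP1, LTBP3 and TGFBI) and TGFBR2 was called higher, at an adjusted p under 0.05 in edgeR's quasi-likelihood test. Of all genes tested 31.2% were called lower and 30.7% higher in that comparison. In normoxia 5 were called lower (TGFB1, TGFBR1, TGFBR3, LTBP1 and LTBP3) and 4 higher (TGFB2, INHBA, TGFBR2 and LTBP2), against 20.6% lower and 25.1% higher among all genes. LTBP1 and LTBP3 were at least 2-fold lower at both oxygen levels, where 4.91% of all genes were in hypoxia and 2.54% in normoxia. The median log2 fold change of the 10 was -0.45 in hypoxia, against -0.0029 for all genes, and -0.14 in normoxia, against 0.033.

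Hypoxia raised nearly all of them. In shRIPOR3 9 of 10 were called higher, all but TGFBR1, against 25.2% of all genes higher and 30.4% lower, and in shControl all 10 were called higher, against 32.4% of all genes higher and 32.4% lower. LTBP1 and LTBP2 rose at least 2-fold in both lines, where 3.2% of all genes did in shRIPOR3 and 7.96% in shControl. Median log2 fold changes were 0.35 in shRIPOR3, against -0.013 over all genes, and 0.59 in shControl, against 0.016. With libraries thinned to one total the counts of called genes were again 9 and 10. The direction over all genes depended on scaling: with TMM 45.3% of the called genes were higher in shRIPOR3 and 50% in shControl, while library totals alone gave 63.4% in shRIPOR3 and 61.6% in shControl and shifted the median of all genes by 0.123 in shRIPOR3 and 0.110 in shControl on the log2 scale. The values below rest on TMM. The hypoxia response differed between the lines for 5 of the 10 (INHBA, TGFBR1, TGFBR3, LTBP1 and TGFBI), each with a smaller log2 fold change in shRIPOR3 than in shControl, against 12.3% of all genes with a lower and 10.9% with a higher response. This balance over all genes turned with the processing: 1705 genes had a higher and 1919 a lower response with TMM, against 1796 and 1395 with DESeq2, 2005 and 1689 with median-of-ratios scaling, 1982 and 1394 without hypoxic shControl library 2, and 2219 and 1511 without hypoxic shControl library 3.

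Among the ligands, TGFB1 was lower in shRIPOR3 at both oxygen levels, while TGFB2 and INHBA were not. TGFB1 encodes the most widely expressed TGF-beta and lies on chromosome 19 from 41301587 to 41353911 (GRCh38, minus strand). It had 36.9, 41.2 and 37.3 CPM in the hypoxic shRIPOR3 libraries, against 66.5, 67.9 and 64.2 CPM in the hypoxic shControl libraries. In normoxia the values were 32.2, 33.2 and 29.5 CPM in shRIPOR3, against 51.0, 48.2 and 46.3 CPM in shControl. Every shRIPOR3 library, the hypoxic ones included, was below every shControl library. The log2 fold change of shRIPOR3 over shControl was -0.79 ± 0.0474 in hypoxia (SE, adjusted p = 7.07e-13) and -0.62 ± 0.0571 in normoxia (adjusted p = 3.37e-09). TGFB1 rose in hypoxia by 0.28 ± 0.0546 in shRIPOR3 (adjusted p = 9.06e-05) and by 0.45 ± 0.0503 in shControl (adjusted p = 2.93e-08), and the difference of -0.16 ± 0.0743 between these responses did not pass the test (adjusted p = 0.119). It passed only without hypoxic shRIPOR3 library 2 (-0.21, adjusted p = 0.0394).

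TGFB2, on chromosome 1 from 218346235 to 218444619 (plus strand), encodes the ligand that depends most on betaglycan. It had 62.3, 62.3 and 64.1 CPM in hypoxic shRIPOR3 libraries, against 63.8, 61.8 and 55.6 CPM in hypoxic shControl libraries. Normoxic shRIPOR3 libraries had 49.0, 53.6 and 55.3 CPM, against 45.3, 45.2 and 44.2 CPM in normoxic shControl. The hairpin groups overlapped in hypoxia and were apart, with shRIPOR3 higher, in normoxia. The hairpin fold change was 0.06 ± 0.0455 in hypoxia (adjusted p = 0.28, 95% interval -0.04 to 0.15) and 0.24 ± 0.0533 in normoxia (adjusted p = 0.000699). Hypoxia raised TGFB2 by 0.25 ± 0.0487 in shRIPOR3 (adjusted p = 0.000112) and by 0.43 ± 0.0504 in shControl (adjusted p = 6.01e-08). The difference of -0.18 ± 0.0700 (adjusted p = 0.0646) passed the test without hypoxic shControl library 3 (adjusted p = 0.0213) or normoxic shRIPOR3 library 1 (adjusted p = 0.0248).

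INHBA, on chromosome 7 from 41667168 to 41705834 (minus strand), encodes the beta-A subunit of activin A. It had 43.2, 43.5 and 42.4 CPM in hypoxic shRIPOR3, against 41.4, 45.3 and 42.9 CPM in hypoxic shControl. In normoxia it had 30.9, 31.4 and 31.2 CPM in shRIPOR3, against 21.7, 24.3 and 22.9 CPM in shControl. The lines therefore overlapped in hypoxia and were clearly apart in normoxia, where the shRIPOR3 libraries were higher. Between the lines the log2 fold change was -0.0050 ± 0.0418 in hypoxia (adjusted p = 0.927, 95% interval -0.09 to 0.08), with a sign that turned under median-of-ratios scaling (0.01), and 0.45 ± 0.0540 in normoxia (adjusted p = 2.56e-07). Its hypoxic increase of 0.46 ± 0.0466 in shRIPOR3, against 0.92 ± 0.0499 in shControl, gave a difference of -0.46 ± 0.0683 (adjusted p = 3.27e-05), which was called under all 21 alternatives that gave a value.

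Among the receptors, the type I gene was lower in shRIPOR3 than in shControl and the type II gene was slightly higher. TGFBR1, on chromosome 9 from 99104038 to 99154192 (plus strand), encodes the kinase that phosphorylates SMAD2 and SMAD3. It had 39.0, 38.9 and 37.8 CPM in hypoxic shRIPOR3, against 65.7, 68.1 and 61.3 CPM in hypoxic shControl, and 39.8, 37.4 and 37.8 CPM in normoxic shRIPOR3, against 57.5, 55.8 and 56.9 CPM in normoxic shControl. All 6 shRIPOR3 libraries lay below all 6 shControl libraries, and the 2 oxygen levels of shRIPOR3 overlapped. The hairpin fold change was -0.75 ± 0.0409 in hypoxia (adjusted p = 1.03e-13) and -0.57 ± 0.0472 in normoxia (adjusted p = 5.65e-10). Hypoxia gave 0.01 ± 0.0457 in shRIPOR3 (adjusted p = 0.826, 95% interval -0.08 to 0.11) and an increase of 0.19 ± 0.0426 in shControl (adjusted p = 0.000314). The shRIPOR3 value passed the test with library totals alone (0.14, adjusted p = 0.0197). The difference of -0.18 ± 0.0625 between the responses (adjusted p = 0.0377) lost its call under 17 of 21 alternatives, among them DESeq2 (adjusted p = 0.11) and leaving out any 1 library other than hypoxic shRIPOR3 2 and hypoxic shControl 3 (adjusted p = 0.0515 to 0.235).

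TGFBR2, on chromosome 3 from 30606502 to 30694142 (plus strand), encodes the receptor that binds the ligand first. It had 137, 132 and 130 CPM in hypoxic shRIPOR3, against 120, 120 and 115 CPM in hypoxic shControl, and 110, 110 and 117 CPM in normoxic shRIPOR3, against 102, 97.6 and 103 CPM in normoxic shControl. The lines did not overlap at either oxygen level, with shRIPOR3 above shControl. shRIPOR3 over shControl gave a log2 fold change of 0.17 ± 0.0374 in hypoxia (adjusted p = 0.000406) and 0.15 ± 0.0406 in normoxia (adjusted p = 0.00334). The hypoxic increase was 0.24 ± 0.0387 in shRIPOR3 (adjusted p = 8.28e-06) and 0.23 ± 0.0394 in shControl (adjusted p = 1.96e-05), and their difference had a 95% interval from -0.10 to 0.13.

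TGFBR3, on chromosome 1 from 91680343 to 91906335 (minus strand), encodes betaglycan. It had 10.6, 12 and 10.3 CPM in hypoxic shRIPOR3, against 17.95, 16.9 and 18.5 CPM in hypoxic shControl, and 8.32, 9.65 and 8.36 CPM in normoxic shRIPOR3, against 9.97, 10.5 and 10.9 CPM in normoxic shControl. The hypoxic shControl libraries stood above the other 9. The hairpin fold change was -0.71 ± 0.0648 in hypoxia (adjusted p = 1.23e-09) and -0.25 ± 0.0887 in normoxia (adjusted p = 0.0231). The normoxic call was lost without normoxic shRIPOR3 library 1 (adjusted p = 0.0646) or 3 (adjusted p = 0.124), without normoxic shControl library 3 (adjusted p = 0.109) and in thinned libraries (adjusted p = 0.143). Hypoxia raised TGFBR3 by 0.31 ± 0.0802 in shRIPOR3 (adjusted p = 0.00194) and by 0.77 ± 0.0751 in shControl (adjusted p = 2.42e-09), a difference of -0.46 ± 0.110 (adjusted p = 0.00372), which kept its call under all 21 alternatives that gave a value.

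Among the genes ranked by level, LTBP1 and LTBP3 held the widest differences between the lines. Not all latent-binding protein genes shared this. The hairpin fold change of LTBP2 was only 0.07 in hypoxia and 0.20 in normoxia. LTBP4, which was tested but not ranked, was called lower in shRIPOR3 at both oxygen levels. Its fold changes were smaller, at -0.27 ± 0.0672 in hypoxia and -0.28 ± 0.0893 in normoxia. LTBP1, on chromosome 2 from 32946972 to 33399509 (plus strand), encodes a protein that tethers latent TGF-beta to fibrillin and fibronectin in the matrix. It had 12.3, 10.6 and 10.99 CPM in hypoxic shRIPOR3, against 34.5, 37.1 and 35.0 CPM in hypoxic shControl. In normoxia it had 4.62, 5.85 and 5.11 CPM in shRIPOR3, against 12.7, 11.9 and 13.3 CPM in shControl. The hypoxic shRIPOR3 libraries thus reached about the level of normoxic shControl, with ranges that overlapped. On the log2 scale shRIPOR3 over shControl was -1.65 ± 0.0587 in hypoxia (adjusted p = 4.21e-17) and -1.28 ± 0.0970 in normoxia (adjusted p = 7.1e-11). Hypoxia raised LTBP1 by 1.11 ± 0.0914 in shRIPOR3 (adjusted p = 1.26e-10) and by 1.48 ± 0.0671 in shControl (adjusted p = 1.57e-15). The difference of -0.37 ± 0.113 (adjusted p = 0.0221) was no longer called in thinned libraries (adjusted p = 0.14), or without hypoxic shRIPOR3 library 3 (adjusted p = 0.0504), hypoxic shControl library 2 (adjusted p = 0.0722) or normoxic shRIPOR3 library 2 (adjusted p = 0.137).

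LTBP3, on chromosome 11 from 65538805 to 65558930 (minus strand), also binds latent TGF-beta covalently. It had 7.86, 7.99 and 8.08 CPM in hypoxic shRIPOR3, against 21.6, 20.5 and 22.9 CPM in hypoxic shControl. Normoxic shRIPOR3 libraries had 5.48, 5.81 and 6.68 CPM, against 15.8, 17.5 and 16.6 CPM in normoxic shControl. Both shRIPOR3 groups lay far below both shControl groups. The hairpin fold change was -1.44 ± 0.0625 in hypoxia (adjusted p = 1.45e-15) and -1.44 ± 0.0858 in normoxia (adjusted p = 8.57e-13). The hypoxic increase was 0.39 ± 0.0853 in shRIPOR3 (adjusted p = 0.000358) and 0.39 ± 0.0631 in shControl (adjusted p = 8.16e-06), and the 95% interval of their difference was -0.22 to 0.22.

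LTBP2, on chromosome 14 from 74498170 to 74612378 (minus strand), encodes the family member that is known not to bind latent TGF-beta and is a part of elastic microfibrils. It had 33.7, 32.9 and 33.0 CPM in hypoxic shRIPOR3, against 31.3, 31.4 and 32.6 CPM in hypoxic shControl, and 12.3, 10.3 and 12.1 CPM in normoxic shRIPOR3, against 10.3, 10.4 and 9.63 CPM in normoxic shControl. Oxygen separated the libraries widely, and the hairpin hardly did: the lines overlapped in normoxia and were narrowly apart in hypoxia. LTBP2 had the largest hypoxic increase of the 10 genes in both lines, 1.52 ± 0.0611 in shRIPOR3 (adjusted p = 3.96e-16) and 1.66 ± 0.0640 in shControl (adjusted p = 5.42e-17). shRIPOR3 over shControl was 0.07 ± 0.0463 in hypoxia (adjusted p = 0.227, 95% interval -0.03 to 0.16) and 0.20 ± 0.0754 in normoxia (adjusted p = 0.0352). That normoxic call was lost with DESeq2 (adjusted p = 0.0805), with only the 2 groups fitted (adjusted p = 0.13), in thinned libraries (adjusted p = 0.0508) and without any 1 of 5 libraries: normoxic shRIPOR3 1 or 3 (adjusted p = 0.105 and 0.206), normoxic shControl 3 (0.158), and hypoxic shControl 2 or 3 (0.0765 and 0.073).

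TGFBI, on chromosome 5 from 136028895 to 136063818 (plus strand), encodes a secreted protein that binds collagens and integrins. It had 144, 140 and 145 CPM in hypoxic shRIPOR3, against 165, 163 and 159 CPM in hypoxic shControl, and 96.9, 96.3 and 94.9 CPM in normoxic shRIPOR3, against 97.8, 99.0 and 96.9 CPM in normoxic shControl. The hypoxic libraries of both lines stood above all normoxic ones, and the lines lay next to each other in normoxia. Between the lines the log2 difference was -0.19 ± 0.0330 in hypoxia (adjusted p = 3.07e-05) and -0.03 ± 0.0368 in normoxia (adjusted p = 0.57, 95% interval -0.10 to 0.05). Hypoxia raised TGFBI by 0.57 ± 0.0350 in shRIPOR3 (adjusted p = 1.59e-12) and by 0.73 ± 0.0350 in shControl (adjusted p = 7.54e-15). The difference of -0.16 ± 0.0494 (adjusted p = 0.022) was not called with no filter on low counts (adjusted p = 0.139) or, with adjusted p between 0.0517 and 0.116, without hypoxic shRIPOR3 library 2, any 1 hypoxic shControl library, normoxic shRIPOR3 library 2, or normoxic shControl library 1 or 3.

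**Figure D2:**
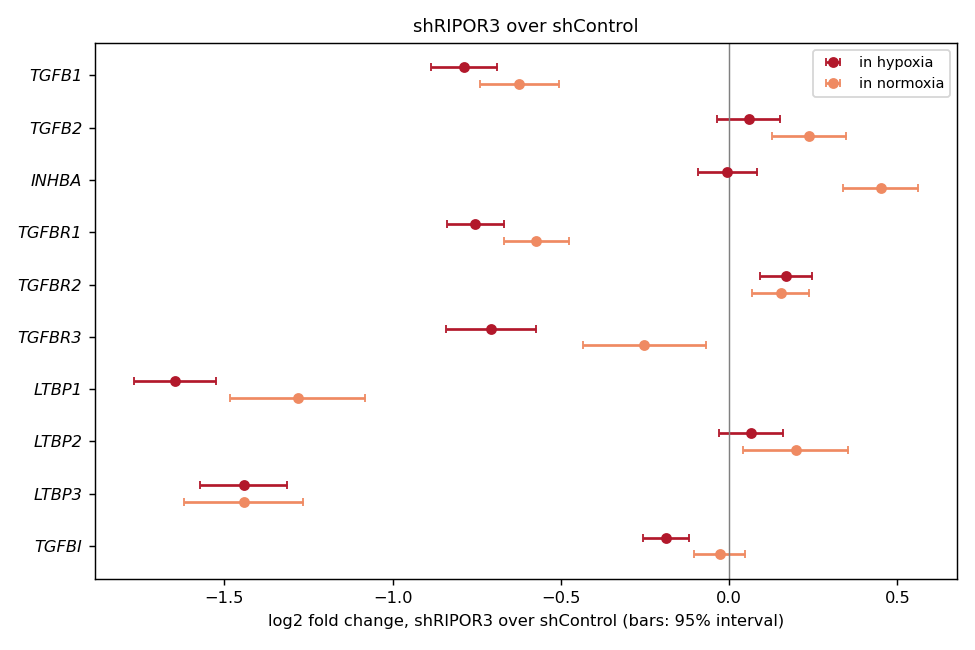
Log2 fold change of shRIPOR3 over shControl (horizontal axis) for the 10 genes, in hypoxia and in normoxia; bars are 95% intervals. LTBP1 and LTBP3 lie furthest left at both oxygen levels (-1.28 to -1.65), and TGFBR2 lies right of 0 at both.

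**Figure D3:**
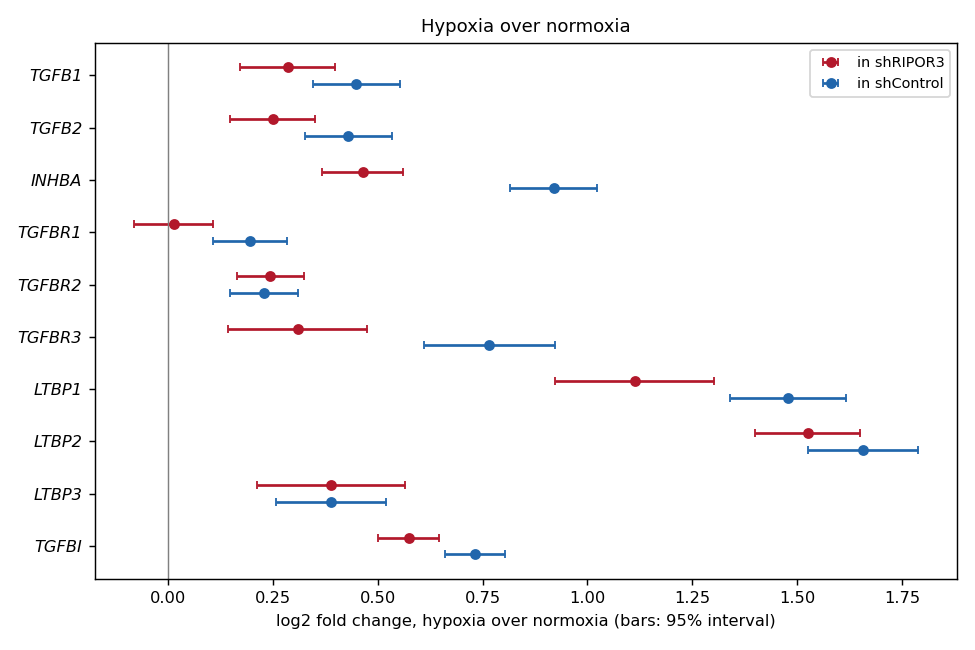
Log2 fold change of hypoxia over normoxia (horizontal axis) for the 10 genes, in shRIPOR3 and in shControl; bars are 95% intervals. LTBP2 and LTBP1 lie furthest right in both lines, and the interval of TGFBR1 in shRIPOR3 spans 0.

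The balance of paired genes was also read within each library as a ratio of raw counts, which no scaling factor touches; the ratios were chosen after the values were seen and were not tested. TGFB2 counts were 1.64 ± 0.111 times those of TGFB1 in hypoxic shRIPOR3, 0.912 ± 0.0457 in hypoxic shControl, 1.67 ± 0.185 in normoxic shRIPOR3 and 0.927 ± 0.0335 in normoxic shControl (SD, n = 3 each). The ratio therefore differed with the hairpin and was about the same in hypoxia and normoxia. TGFBR2 over TGFBR1 was 3.45 ± 0.0687 in shRIPOR3 and 1.82 ± 0.0603 in shControl in hypoxia, and 2.93 ± 0.167 in shRIPOR3 and 1.78 ± 0.0273 in shControl in normoxia. LTBP2 over LTBP1 was 2.95 ± 0.180 in shRIPOR3 and 0.894 ± 0.0440 in shControl in hypoxia, and 2.26 ± 0.459 in shRIPOR3 and 0.803 ± 0.0725 in shControl in normoxia. LTBP2 over LTBP3 moved with both the hairpin and oxygen, at 4.16 ± 0.110 in hypoxic shRIPOR3, 1.47 ± 0.0547 in hypoxic shControl, 1.94 ± 0.260 in normoxic shRIPOR3 and 0.608 ± 0.0393 in normoxic shControl. INHBA over TGFB1 was 1.12 ± 0.0590 in shRIPOR3 and 0.653 ± 0.0265 in shControl in hypoxia, and 0.987 ± 0.0622 in shRIPOR3 and 0.475 ± 0.0425 in shControl in normoxia. In each of these 5 ratios the shRIPOR3 libraries lay above the shControl libraries at the same oxygen level without overlap.

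**Figure D4:**
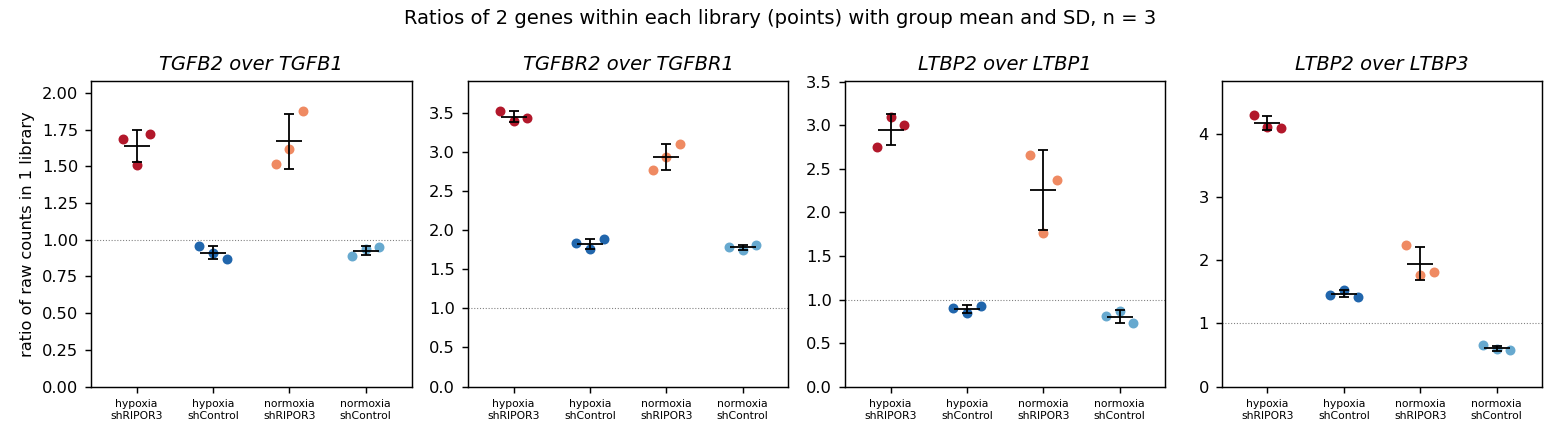
Ratio of the raw counts of 2 genes within each library (vertical axes, from 0) for 4 gene pairs in the 4 groups; points are libraries and bars the mean and SD of 3. In every panel the shRIPOR3 libraries lie above the shControl libraries at the same oxygen level, for TGFB2 over TGFB1 from 1.51 to 1.88 in shRIPOR3 and from 0.867 to 0.958 in shControl.

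Across the 12 libraries the log2 CPM of the genes fell into patterns that are given as Pearson correlations, with no test, since all points share the 4 groups. TGFB1 ran with LTBP1 (r = 0.954), LTBP3 (r = 0.946) and TGFBR1 (r = 0.936). TGFB2 ran with INHBA (r = 0.943) and TGFBR2 (r = 0.916), and LTBP2 with TGFBI (r = 0.963) and INHBA (r = 0.932). TGFB1 and TGFB2 had r = 0.0981, and TGFBR1 and TGFBR2 had r = -0.398. Among other genes of at least 5 CPM, the one most alike in pattern was PDGFC for TGFB1 (r = 0.996), ZKSCAN8 for TGFB2 (r = 0.986), RBAK for INHBA (r = 0.990), BFSP1 for TGFBR1 (r = 0.994) and SLC35C2 for TGFBR2 (r = 0.977). It was EPAS1 for TGFBR3 (r = 0.983), TACC2 for LTBP1 (r = 0.996), HERC2 for LTBP2 (r = 0.997), TNKS1BP1 for LTBP3 (r = 0.995) and GABRE for TGFBI (r = 0.997).

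Other genes of the pathway were read from 5 lists with 91 entries, 73 of them tested, which are 69 genes since 4 stand in 2 lists. Among 3 tested ligands of 10 listed, INHBB, the beta-B subunit of activin B, stood out. It averaged 31.6 ± 1.14 CPM in hypoxic shRIPOR3, 40.5 ± 0.269 in hypoxic shControl, 15.2 ± 1.62 in normoxic shRIPOR3 and 13.1 ± 1.54 in normoxic shControl. Hypoxia raised it by 1.05 ± 0.0669 in shRIPOR3 and by 1.61 ± 0.0689 in shControl, and the hairpin fold change was -0.36 ± 0.0530 in hypoxia (adjusted p = 3.07e-06) and 0.20 ± 0.0801 in normoxia (adjusted p = 0.0424). The normoxic call was lost in 12 of 22 alternatives, among them DESeq2 (adjusted p = 0.0541) and leaving out normoxic shRIPOR3 library 2 or 3, normoxic shControl library 2 or 3, or hypoxic shControl library 2 or 3 (adjusted p = 0.0794 to 0.256). GDF11, a relative of myostatin, rose in hypoxia by 0.27 ± 0.0648 in shRIPOR3 and by 0.31 ± 0.0651 in shControl. TGFB3, the remaining TGF-beta ligand, rose by 0.36 ± 0.118 in shRIPOR3 (adjusted p = 0.0104), with 0.11 ± 0.117 in shControl (adjusted p = 0.449). The difference of 0.25 ± 0.166 between these responses was not called (adjusted p = 0.335), except in thinned libraries (0.67, adjusted p = 0.0405). TGFB3 was scarce, with group means of 2.53 to 3.29 CPM. The hairpin fold changes of GDF11 and TGFB3 were not called: -0.08 ± 0.0587 in hypoxia and -0.05 ± 0.0706 in normoxia for GDF11, 0.04 ± 0.0987 in hypoxia and -0.22 ± 0.134 in normoxia for TGFB3. Without hypoxic shControl library 2, GDF11 in hypoxia was called (-0.15, adjusted p = 0.0245).

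Of 7 tested receptors and co-receptors 2 were called higher and 2 lower in shRIPOR3, in hypoxia as in normoxia, and 4 rose and none fell in hypoxia in either line. The hairpin counts lie near the shares of all genes, 30.7% higher and 31.2% lower in hypoxia and 25.1% and 20.6% in normoxia. With hypoxia 25.2% of all genes rose and 30.4% fell in shRIPOR3, and 32.4% rose and 32.4% fell in shControl. ENG (endoglin, a TGF-beta co-receptor) was lower in shRIPOR3 in normoxia (-0.20 ± 0.0368, adjusted p = 9.39e-05), at 94.0 ± 1.48 CPM in shRIPOR3 and 108 ± 2.10 CPM in shControl, with 0.03 ± 0.0337 in hypoxia (adjusted p = 0.467). ACVR1B, the type I receptor for activin, was higher by 0.12 ± 0.0516 in hypoxia and 0.28 ± 0.0693 in normoxia, and ACVR2A, a type II activin receptor, by 0.29 ± 0.0863 in hypoxia and 0.30 ± 0.119 in normoxia. Not all of these calls held: that of ACVR1B in hypoxia (adjusted p = 0.0391) was lost in 8 of 22 alternatives, among them DESeq2 (adjusted p = 0.0704) and leaving out hypoxic shRIPOR3 library 1 or 3 or hypoxic shControl library 1 or 3 (adjusted p = 0.0734 to 0.132). ACVR2A lost its call in thinned libraries in hypoxia (adjusted p = 0.0684) and in 18 of 22 alternatives in normoxia (adjusted p = 0.048, over the alternatives 0.0478 to 0.265), among them leaving out any normoxic library, hypoxic shRIPOR3 library 1 or hypoxic shControl library 2 or 3. ACVR1C fell by 1.32 in hypoxia and by 1.67 in normoxia and ACVRL1 fell by 1.33 in hypoxia on the log2 scale (-0.63 ± 0.395 in normoxia, adjusted p = 0.197), but both were scarce, at or below 0.520 CPM in every group, and the normoxic call of ACVR1C (adjusted p = 0.043) was lost in 11 of the 19 alternatives that gave a value, among them leaving out any hypoxic shRIPOR3 library, normoxic shRIPOR3 library 2 or 3, or normoxic shControl library 1 or 3 (adjusted p = 0.0507 to 0.218). ACVR2B, another type II activin receptor, had the largest increase in hypoxia among those called, 0.70 ± 0.0674 in shRIPOR3 and 0.99 ± 0.0699 in shControl, ahead of ACVR1B with 0.44 ± 0.0590 in shRIPOR3 and 0.60 ± 0.0631 in shControl. ENG rose by 0.35 ± 0.0353 in shRIPOR3 and 0.12 ± 0.0352 in shControl (0.23 in shControl with library totals alone), and ACVR2A by 0.38 ± 0.0987 in shRIPOR3 and 0.38 ± 0.109 in shControl.

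Genes of latency, activation and soluble antagonism were mostly lower in shRIPOR3 in hypoxia: 11 of 17 tested were called lower and 2 higher, against 4 lower and 5 higher in normoxia (median log2 fold changes -0.27 in hypoxia and -0.08 in normoxia). Of all genes 31.2% were lower and 30.7% higher in hypoxia, against 20.6% lower and 25.1% higher in normoxia. The hairpin fold change itself was called different between the oxygen levels for only 4 of the 17, each with a lower value in hypoxia. For the other 13 no difference was called. Of all genes 12.3% had a lower and 10.9% a higher value in hypoxia by this test. BMP1, a protease known to cleave LTBP1, averaged 10.6 ± 0.552 CPM in hypoxic shRIPOR3 and 18.8 ± 0.605 in hypoxic shControl, and 8.24 ± 0.552 in normoxic shRIPOR3 and 14.3 ± 1.25 in normoxic shControl, with fold changes of -0.82 ± 0.0614 in hypoxia and -0.82 ± 0.0821 in normoxia. THBS1, an activator of latent TGF-beta, went the other way, at 317 ± 2.91 CPM in hypoxic shRIPOR3 and 197 ± 3.84 in hypoxic shControl (0.69 ± 0.0333), and 132 ± 2.27 in normoxic shRIPOR3 and 75.8 ± 1.59 in normoxic shControl (0.80 ± 0.0377). ITGB5, an integrin subunit, was lower in hypoxia (-0.40 ± 0.0340), with -0.06 ± 0.0381 in normoxia (adjusted p = 0.241). FST, the activin trap follistatin, was lower in hypoxia (-0.18 ± 0.0412, adjusted p = 0.000665) and higher in normoxia (0.27 ± 0.0469, adjusted p = 4e-05). With hypoxia 10 of the 17 rose and 1 fell in shRIPOR3, and 13 rose and 1 fell in shControl, against 25.2% of all genes rising and 30.4% falling in shRIPOR3, and 32.4% each way in shControl. THBS1 rose by 1.26 ± 0.0346 in shRIPOR3 and 1.37 ± 0.0365 in shControl, and FBN1, the microfibril protein fibrillin, by 1.25 ± 0.0549 in shRIPOR3 and 1.75 ± 0.0564 in shControl. MMP14, a membrane protease, rose by 0.53 ± 0.0374 in shRIPOR3 and 0.66 ± 0.0373 in shControl, and ITGB5 by 0.46 ± 0.0362 in shRIPOR3 and 0.80 ± 0.0360 in shControl.

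Of 22 SMADs and their regulators 7 were called higher and 9 lower in shRIPOR3 in hypoxia, and 11 higher and 5 lower in normoxia. The share of all genes called was 30.7% higher and 31.2% lower in hypoxia, near which these counts lie, and 25.1% higher and 20.6% lower in normoxia. SMAD3, a transcription factor activated by TGFBR1, had the smallest p at both oxygen levels. It averaged 61.0 ± 1.13 CPM in hypoxic shRIPOR3 and 111 ± 1.48 in hypoxic shControl (-0.86 ± 0.0341, adjusted p = 3.61e-16), and 38.3 ± 0.841 in normoxic shRIPOR3 and 57.1 ± 0.894 in normoxic shControl (-0.58 ± 0.0418, adjusted p = 5.77e-11). SMAD2, its partner, named after its values were seen, gave -0.06 ± 0.0417 in hypoxia (adjusted p = 0.209) and -0.02 ± 0.0458 in normoxia (adjusted p = 0.797). TGIF1, a SMAD corepressor, was lower at both oxygen levels (-0.44 ± 0.0436 in hypoxia and -0.33 ± 0.0520 in normoxia), and USP15, a deubiquitinase of the receptor complex, higher (0.36 ± 0.0450 in hypoxia and 0.29 ± 0.0483 in normoxia). NEDD4L, a ubiquitin ligase for SMADs, was also higher at both (0.32 ± 0.0397 in hypoxia and 0.50 ± 0.0407 in normoxia), and USP4, a deubiquitinase of TGFBR1, lower (-0.21 ± 0.0429 in hypoxia and -0.48 ± 0.0456 in normoxia). Hypoxia raised 10 and lowered 8 of the list in shRIPOR3, and raised 13 and lowered 7 in shControl (all genes: 25.2% and 30.4% in shRIPOR3, 32.4% and 32.4% in shControl). SKI, a corepressor, rose by 1.00 ± 0.0454 in shRIPOR3 and 0.88 ± 0.0445 in shControl, and SMAD3 by 0.67 ± 0.0395 in shRIPOR3 and 0.96 ± 0.0368 in shControl. SMURF2, a ubiquitin ligase of the receptors, fell in both lines (-0.52 ± 0.0380 in shRIPOR3 and -0.38 ± 0.0385 in shControl), as did USP4 (-0.35 ± 0.0448 in shRIPOR3, or -0.23 with library totals alone, and -0.63 ± 0.0436 in shControl).

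Targets known to respond to SMADs moved in both directions: 12 of 24 tested were called lower and 6 higher in shRIPOR3 in hypoxia, and 11 lower and 9 higher in normoxia, where all genes had 31.2% lower and 30.7% higher in hypoxia and 20.6% lower and 25.1% higher in normoxia. FN1, encoding fibronectin, averaged 531 ± 9.49 CPM in hypoxic shRIPOR3 and 1359 ± 45.9 in hypoxic shControl (-1.36 ± 0.0359), and 182 ± 2.05 in normoxic shRIPOR3 and 340 ± 6.39 in normoxic shControl (-0.91 ± 0.0380). BHLHE40, a transcription factor also known as a target of hypoxia, was lower by 2.06 ± 0.0386 in hypoxia and 1.52 ± 0.0688 in normoxia, with 26.6 ± 0.759 CPM in hypoxic shRIPOR3 and 111 ± 1.96 in hypoxic shControl. CDKN1A, encoding the cell-cycle inhibitor p21, had 12.6 ± 0.660 CPM in hypoxic shRIPOR3 and 32.8 ± 1.97 in hypoxic shControl (-1.38 ± 0.0541), and 11.8 ± 0.133 in normoxic shRIPOR3 and 19.4 ± 0.777 in normoxic shControl (-0.72 ± 0.0706). CTGF, a matricellular protein, went up instead, at 743 ± 5.35 CPM in hypoxic shRIPOR3 and 569 ± 16.3 in hypoxic shControl (0.39 ± 0.0352), and 307 ± 1.96 in normoxic shRIPOR3 and 152 ± 4.52 in normoxic shControl (1.01 ± 0.0375). Hypoxia raised 12 and lowered 4 of the 24 in shRIPOR3, where 25.2% of all genes rose and 30.4% fell. In shControl it raised 14 and lowered 5, where 32.4% of all genes rose and 32.4% fell. BHLHE40 rose by 1.86 ± 0.0643 in shRIPOR3 and 2.40 ± 0.0457 in shControl, FN1 by 1.55 ± 0.0374 in shRIPOR3 and 2.00 ± 0.0366 in shControl, and CTGF by 1.28 ± 0.0359 in shRIPOR3 and 1.90 ± 0.0369 in shControl. PMEPA1, SMAD7, SKIL and TGIF1 stand in both this list and that of the SMAD regulators.

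**Figure D5:**
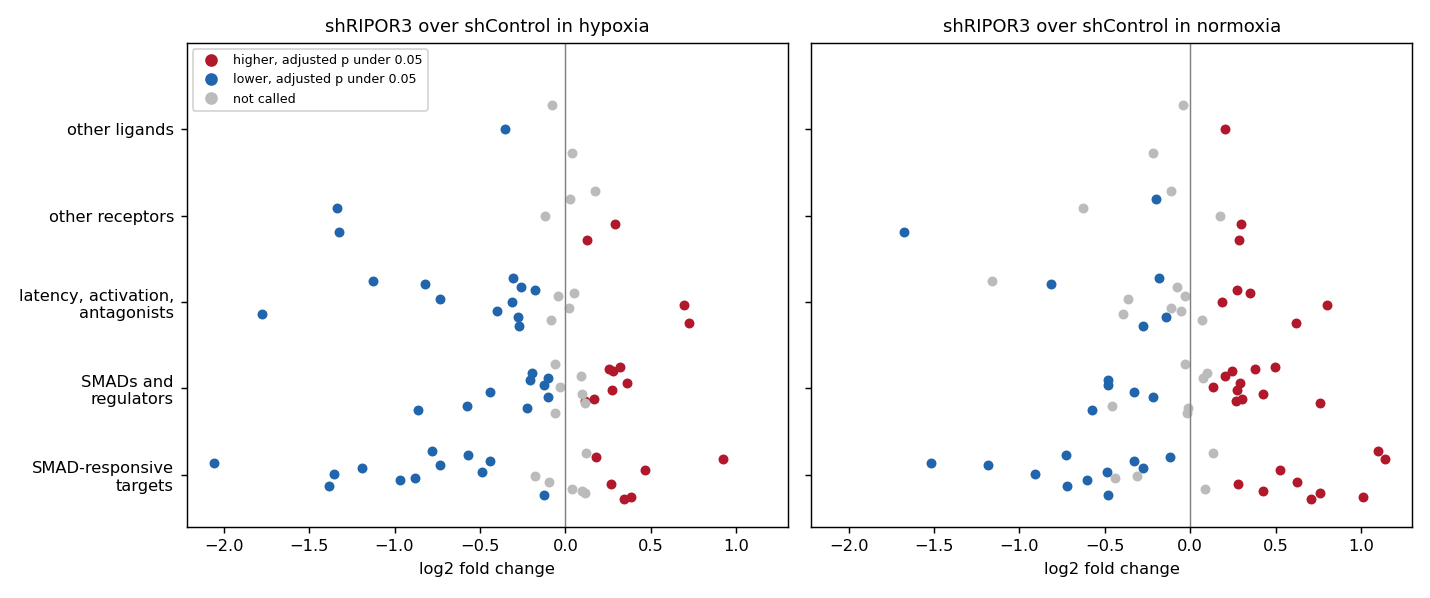
Log2 fold change of shRIPOR3 over shControl (horizontal axes) in hypoxia (left) and normoxia (right) for the tested genes of 5 lists, 1 point per gene, coloured by the call at an adjusted p under 0.05. In hypoxia 11 of 17 genes of latency and activation are called lower, and the SMAD-responsive targets lie on both sides of 0.

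The counting could blur a few values. On the GENCODE 29 annotation, exons of HNRNPUL1 on the opposite strand cover 6.64% of the exonic length of TGFB1, and exons of TGFB2-OT1 on the same strand cover 26.6% of that of TGFB2, though TGFB2-OT1 is not listed in the count table. The strand setting of the counting is not given in the sources used here, so reads of TGFB1 and HNRNPUL1 in the shared bases may not have been told apart.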

How the data were processed

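The 12 libraries are messenger RNA of MDA-MB-231 cells, 3 per group, and were grouped by their titles. The authors deposited raw counts per gene symbol, 1 column per library. Per the labels' protocols, libraries were made with a stranded mRNA kit. Per the submitters' processing notes, GRCh38, featureCounts, STAR 2.5.3a and fastp 0.23.4 were used, with no role or order stated. The annotation and the strand setting of the counting were not given in the sources used here. No column was left unused.

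The counts of all 12 libraries went into a single edgeR 4.0.16 fit (R 4.3.3, limma 3.58.1) with 1 coefficient per group. Weak genes were dropped by filterByExpr and libraries scaled by TMM (factors 0.952 to 1.048). Tests were quasi-likelihood F-tests with Benjamini-Hochberg adjustment over 15648 genes and a threshold of 0.05. The spread that edgeR names the biological coefficient of variation was 3.74%. Whether this spread is biological or technical is not known here. The 5 comparisons were shRIPOR3 against shControl within each oxygen level, hypoxia against normoxia within each line, and the difference of the hypoxia responses (shRIPOR3 minus shControl). Levels are TMM-normalised CPM; standard errors and 95% intervals come from the fitted coefficients. Replicates of a group differed by more than sampling noise (chi-square per degree of freedom 2.65 to 6.32), so none was taken for a repeat deposit. At this depth counting error bears on scarce genes, RIPOR3 and ACVR1C among them.

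Names, coordinates and exon lengths came from GENCODE 29 (GRCh38) and promoter windows from RefSeq (GRCh38.p14). Named genes are the 10 genes, RIPOR3, up to 3 genes with the smallest p from each of 5 pathway lists in each comparison, and the most alike gene of each of the 10. The 10 genes and the lists (other ligands, other receptors, latency and activation, SMADs and regulators, SMAD-responsive targets, cell type markers) were chosen with earlier results of these data known. Alternatives were DESeq2 1.42.0, 3 other scalings, 2 other filters, a replicate block, a fit of only the 2 groups compared, a threshold of 0.01, thinned counts and leaving out each library. The test was also run on simulated data in which few genes changed, evenly up and down. Many more genes were called here, so that run does not check the scaling or the error rate in these data. Figures were drawn with matplotlib 3.10.9 in Python 3.11.15.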

Additional observations from a re-analysis of the deposited data

Results flagged for a closer look

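Groups of 3 libraries were too small for a test of single outlying libraries. A difference between the lines in their response to hypoxia, tested as the interaction of hairpin and oxygen in edgeR's quasi-likelihood fit, brought out the results below, each given as the log2 response in shRIPOR3 minus that in shControl. Among the 10 genes these were INHBA (-0.46, adjusted p = 3.27e-05), TGFBR3 (-0.46, adjusted p = 0.00372), LTBP1 (-0.37, adjusted p = 0.0221), TGFBR1 (-0.18, adjusted p = 0.0377) and TGFBI (-0.16, adjusted p = 0.022). INHBA, TGFBR3, LTBP1 and TGFBI had a smaller increase in shRIPOR3, and TGFBR1 had no called increase there (0.01 ± 0.0457, adjusted p = 0.826). Of 21 alternatives, the interaction call was lost in 17 for TGFBR1, in 9 for TGFBI and in 5 for LTBP1.

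Among the other ligands and receptors, the response of INHBB was smaller in shRIPOR3 (-0.56, adjusted p = 0.000162), as was that of ACVR2B (-0.29, adjusted p = 0.0324), while that of ENG was larger (0.23, adjusted p = 0.00173). The ACVR2B call was lost in 10 of 21 alternatives, among them DESeq2 (adjusted p = 0.0998) and leaving out hypoxic shRIPOR3 library 3, hypoxic shControl library 2 or 3, normoxic shRIPOR3 library 2 or 3, or normoxic shControl library 3 (adjusted p = 0.0574 to 0.128). Among genes of latency and antagonism the difference was -0.45 for FST (adjusted p = 1.34e-05), -0.34 for ITGB5 (adjusted p = 2.92e-05) and -0.50 for FBN1 (adjusted p = 6.25e-05). Among SMADs and regulators it was -0.28 for SMAD3 (adjusted p = 0.000464), 0.28 for USP4 (adjusted p = 0.00216), whose decrease in hypoxia was smaller in shRIPOR3, and 0.36 for PMEPA1 (adjusted p = 0.00472). Among targets it was -0.63 for CTGF (adjusted p = 6.28e-09), -0.45 for FN1 (adjusted p = 1.38e-06) and -1.88 for LOX (adjusted p = 1.46e-08). LOX, a collagen crosslinking enzyme, rose by 1.11 in shRIPOR3 and by 2.99 in shControl, with mean levels of 13.9 ± 0.889 CPM in hypoxic shRIPOR3, 23.96 ± 0.342 in hypoxic shControl, 6.39 ± 0.429 in normoxic shRIPOR3 and 2.85 ± 1.06 in normoxic shControl (SD, n = 3).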

How the results depend on the processing

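The counts of the 10 genes called were 9 and 10 in hypoxia (shRIPOR3 and shControl) and 7 and 9 for the hairpin (hypoxia and normoxia), and over the alternatives ranged from 9 to 10, 10 to 10, 7 to 7 and 7 to 9. The count for the interaction was least stable: 5 became 3 with no filter, 3 in thinned libraries, 2 at an adjusted p of 0.01 and 2 to 5 when 1 library was left out, and genes called overall became 2185 at that threshold, against 3624. Signs turned only for values that were not called. For INHBA and the hairpin in hypoxia the value was 0.01047 with DESeq2, 0.01052 with median-of-ratios scaling, 0.02135 with no filter and 0.0017 with only the 2 groups. For the interaction, LTBP3 gave -0.0041 at 1 CPM in 3 libraries and -0.04517 in thinned libraries, and TGFBR2 gave -0.02059 in thinned libraries. Leaving out 1 library gave -0.03555 to 0.03973 for INHBA (hairpin, hypoxia), -0.0044 to 0.05436 for TGFBR1 (hypoxia, shRIPOR3), -0.1461 to 0.0049 and -0.09442 to 0.0092 for GDF11 (hairpin, hypoxia and normoxia), -0.0061 to 0.07912 for TGFB3 (hairpin, hypoxia), -0.05786 to 0.006523 for SMAD2 (hairpin, normoxia) and -0.1254 to 0.4659 for ITGB3 (hypoxia, shRIPOR3). For the interaction it gave -0.0074 to 0.0621 for TGFBR2, -0.04277 to 0.1077 for LTBP3 and -0.08392 to 0.0775 for GDF11. The cause was not tested. A fit of 2 groups gives no interaction.

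With a replicate block the counts for the 10 genes were 9, 10, 7, 9 and 5 in the same order, and 8664, 10113, 9694, 7119 and 3596 genes were called in all, against 8704, 10143, 9689, 7150 and 3624. Of the named genes ACVR1C and ACVR2A in normoxia lost their calls under the block (adjusted p = 0.0548 and 0.0544). Libraries of the same replicate number showed no shared deviation: same-numbered deviations correlated at -0.149 to 0.139 over 18 pairs, with the own number best in 11 of 36 cases. This cannot show whether same-numbered libraries were handled together.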

Other observations

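A few pathway genes outside the rule for named genes were chosen after their values were seen. HAS2, a hyaluronan synthase, was higher in shRIPOR3, at 10.4 ± 0.704 CPM in shRIPOR3 and 5.49 ± 0.580 in shControl in hypoxia, and 11.4 ± 0.621 in shRIPOR3 and 5.07 ± 0.332 in shControl in normoxia. TAGLN, an actin-binding target, was lower, at 14.3 ± 0.429 CPM in shRIPOR3 and 28.1 ± 0.601 in shControl in hypoxia (-0.97 ± 0.0593, adjusted p = 8.88e-13) and 29.3 ± 2.36 CPM in shRIPOR3 and 44.6 ± 3.78 in shControl in normoxia.

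ITGB3, an integrin subunit that takes part in releasing latent TGF-beta, had 0.730 ± 0.117 CPM in hypoxic and 0.747 ± 0.389 in normoxic shRIPOR3 (adjusted p = 0.768), whereas it rose in hypoxia in shControl, with 2.55 ± 0.169 CPM in hypoxia and 0.928 ± 0.107 in normoxia (log2 fold change 1.49 ± 0.221, adjusted p = 8.46e-07). The difference of the responses was -1.38 ± 0.347 (adjusted p = 0.00566), at levels of at most 2.55 CPM in any group.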
